A study of Mus musculus with 11 samples.

Results

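Return of the kinin B1 receptor to fat alone was compared with its complete absence in 3 fat rescue mice (aP2B1-B1-/-) and 4 knockout mice (B1-/-), chosen by their sample titles. They gave 7 of the 11 arrays of the series, and 4 wild-type mice (B1+/+) are given as a reference only. All were male C57BL/6 mice, 3 months old and fed standard chow, and total RNA came from their snap-frozen epididymal fat, a visceral depot of white fat. Both groups compared lack the receptor gene's own product, so that the transgene is the labelled difference between them. aP2 is another name of Fabp4, a fatty acid binding protein gene whose promoter is widely used to drive transgenes in adipocytes and is also active in macrophages; the labels give neither the number of transgenic lines nor the breeding of the groups. Each array was called a biological replicate in the labels, and p-values measure the spread between these samples only. The comparison covered 12709 genes.

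Kinins are short peptides cut from kininogens by kallikreins, and they act through a pair of G protein-coupled receptors. The B2 receptor is present in many tissues at rest, whereas the B1 receptor is usually scarce and is induced by inflammation and tissue injury. Both couple mainly to Gq and Gi, raise intracellular calcium and activate the ERK cascade, and kinin signalling in fat and muscle has been linked to insulin action and glucose uptake.

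The receptor's own probe set was higher in fat rescue than in knockout on every array. Bdkrb1, which encodes the B1 receptor, had a signal of 4.8, 29.4, 6.9 and 29.7 on the 4 knockout arrays and 73.4, 57.8 and 60.4 on the 3 rescue arrays. All rescue arrays lay above all knockout arrays, and above the wild-type arrays too, which read 5.5, 32.2, 3.7 and 8.9. The means were 17.7 ± 13.7 (SD, n = 4) in knockout and 63.9 ± 8.36 (SD, n = 3) in fat rescue, a ratio of 3.61. On the log2 scale, where 1 is a doubling, the difference was 2.28 ± 0.83 (SE, here and for every log2 difference that follows), with a 95% interval from 0.49 to 4.08. By limma the unadjusted p was 0.0167 and the adjusted p over all genes 0.998, and a two-sided exact permutation test gave p = 0.0857 where the smallest possible with 3 against 4 arrays is 0.0286. The size is not exact, because the knockout signals lie near the bottom of the scale: with 50 added to every signal before the logarithm was taken, the difference was 0.77 ± 0.18. The sources used here do not place this probe set against the deletion or the transgene, so low values in knockout do not check the deletion.

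For neither the other kinin receptor gene nor Fabp4, after which the transgene is named, did all rescue arrays lie outside the knockout range. Bdkrb2, which encodes the B2 receptor, read between 2.4 and 28.7 on the 7 arrays with its pair of probe sets. The dimmer of the pair read 3.8, 3.3, 2.4 and 4.4 in knockout, against 10.1, 11.6 and 4.2 in fat rescue, overlapping through rescue array 3. A two-sided exact permutation test gave p = 0.0571 for the dimmer and p = 0.4 for the brighter. The 95% intervals of their log2 differences, -1.60 to 4.03 and -0.84 to 1.72, held 0. Fabp4 read 26539.2, 26587.2, 20886.0 and 18597.8 on the knockout arrays and 25939.6, 24407.9 and 22675.7 on the rescue arrays with its brightest probe set. The groups overlapped with all 4 Fabp4 probe sets, and the differences were 0.09, 0.00, -0.06 and -0.24 on the log2 scale. Of 25 measured genes of kinin formation, breakdown and receptor signalling, 13 had higher and 12 lower means in fat rescue, with a median of 0.00. The member with the smallest p was Mme, which encodes neprilysin, a membrane peptidase that degrades kinins. It read 315.1, 384.9, 475.0 and 344.7 in knockout, against 287.6, 303.4 and 287.4 in fat rescue, so that all rescue arrays lay below all knockout arrays (log2 -0.36 ± 0.14, adjusted p = 0.998 by limma; -0.52 with its other probe set). Among the 20 measured genes nearest to Bdkrb1 on chromosome 12, 10 on each side, 0 had an unadjusted p under 0.05 by limma, which 3.81% of all genes had.

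**Figure D1:**
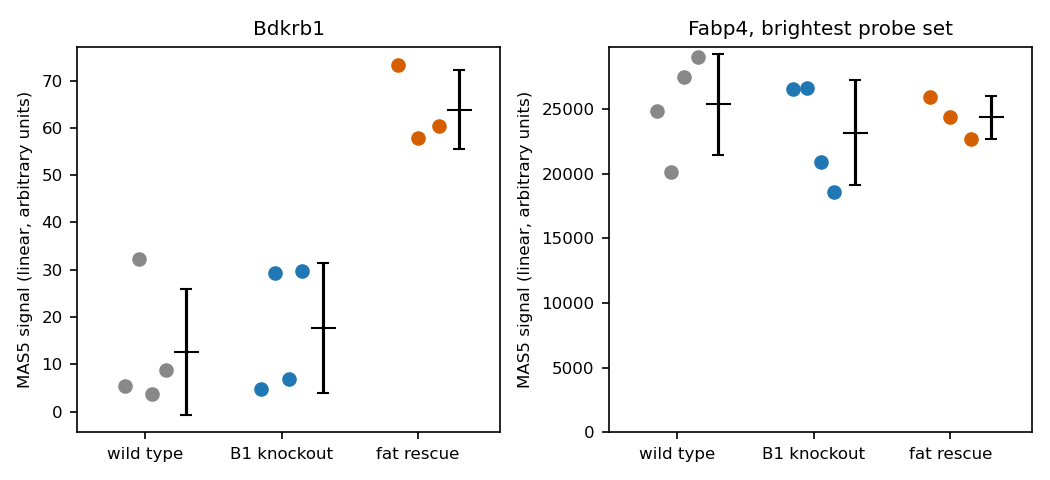
Signal of the Bdkrb1 probe set (left) and of the brightest Fabp4 probe set (right) on the 4 wild-type, 4 knockout and 3 fat rescue arrays, on linear axes in arbitrary units; each point is 1 array, and the horizontal mark with its bar is the mean ± SD. For Bdkrb1 the 3 rescue arrays read 57.8 to 73.4 against 4.8 to 29.7 in knockout, while the Fabp4 groups overlap.

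Across all genes no difference stood out from the spread between arrays. By limma the number of genes under an adjusted p of 0.05 was 0 out of 12709 (0%), the smallest adjusted p being 0.998. An unadjusted p under 0.05 was reached by 484 genes (3.81%), where 635 would be expected if none differed; 265 (2.09%) were higher in fat rescue and 219 (1.72%) lower. All rescue arrays lay above all knockout arrays in 361 genes (2.84%) and below them in 266 (2.09%), together 4.93% of genes. The mean was higher in fat rescue in 52.6% of genes and lower in 47.4%, and the median difference was 0.01. Knockout array 1 counted most: without it 858 genes had an unadjusted p under 0.05, and without it and rescue array 1 there were 898, with 0 genes past the adjusted threshold both times. Consequently every gene and group below is described by its values, and none passed the test over all genes.

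Rescue and knockout arrays lay as close to each other as arrays of 1 group did. The median absolute log2 difference over all genes was between 0.172 and 0.253 for the 12 pairs of a rescue and a knockout array, with a median of 0.202. It was 0.190 to 0.261 (median 0.203) for the 6 pairs of knockout arrays and 0.197 to 0.212 (median 0.210) for the 3 pairs of rescue arrays. The first principal component of the 7 arrays, with 33.5% of the variance, set rescue array 1 apart at -47.1. The 3'/5' signal ratio of Actb, a measure of RNA integrity and amplification, was 1.472 to 1.555 in fat rescue and 1.531 to 1.686 in knockout, whereas that of Gapdh overlapped more fully (0.918 to 0.950 and 0.865 to 1.001). The part of the lower Actb ratio in the gene differences was not tested.

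**Figure D2:**
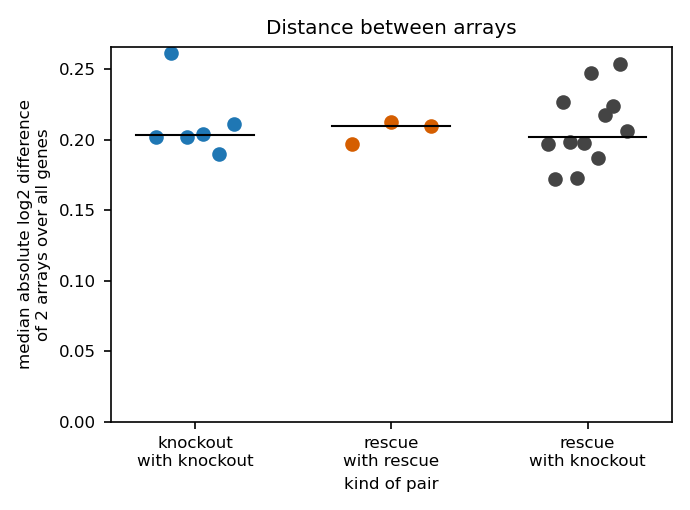
Median absolute log2 difference over all genes (vertical axis) for each pair of arrays, by kind of pair; each point is 1 pair and the line is the median of the kind. Pairs of a rescue and a knockout array (median 0.202) lie no further apart than pairs of knockout arrays (0.203) or of rescue arrays (0.210).

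How large a difference the arrays could have missed depended on the brightness of a gene. The 95% interval of a gene's difference reached a median of 0.35 to either side on the log2 scale, and the 10th and 90th percentiles of that reach were 0.21 and 0.87. It lay wholly within a 1.5-fold change either way for 7855 genes (61.8%) and within a 2-fold change for 10816 (85.1%). Among the 7150 genes with a mean signal of at least 200 on the 7 arrays, 6202 (86.7%) had an interval within 1.5-fold and 7017 (98.1%) within 2-fold. These intervals are not adjusted for the number of genes. The measured difference exceeded 2-fold in 198 genes, of which 19 reached that brightness, and 1.5-fold in 621, of which 45 did.

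**Figure D3:**
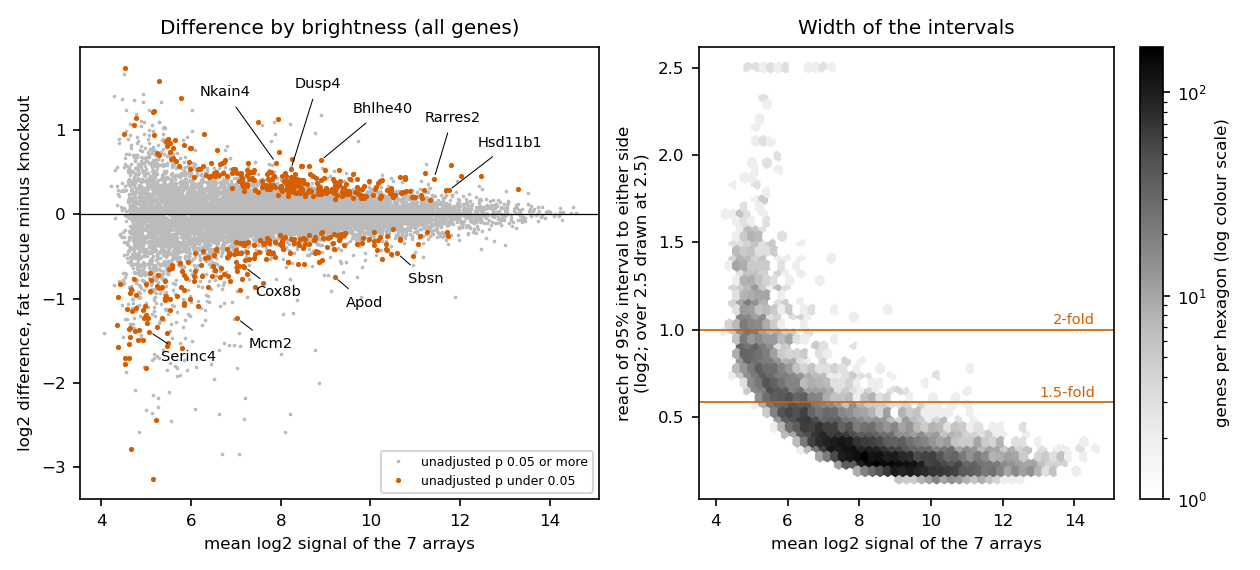
Left, log2 difference (fat rescue minus knockout) of each of 12709 genes against its mean log2 signal on the 7 arrays, with the 484 genes of unadjusted p under 0.05 in orange and 10 named genes marked. Right, reach of the 95% interval to either side of the same differences by brightness, as a density of genes with a log colour scale; the lines mark 1.5-fold and 2-fold, and most bright genes lie under the lower line.

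The 5 genes that passed between knockout and wild type (limma, adjusted p under 0.05) are those in which a return would be looked for, and 1 of them lay between these groups on every rescue array. That gene was Hsd11b1, whose enzyme turns inert cortisone-like steroids back into active glucocorticoid and is abundant in liver and fat. It read 2938.0, 3456.3, 3504.4 and 2811.9 in knockout, 3962.2, 3682.0 and 3921.5 in fat rescue, and between 5364.0 and 5910.3 in wild type. The rescue arrays did not overlap with either group. The difference from knockout was 0.28 ± 0.09 on the log2 scale, with an unadjusted p of 0.00916 and an adjusted p of 0.998 by limma, and it was 0.23 to 0.33 when any 1 array was left out. Fat rescue minus wild type was -0.55 ± 0.09 and knockout minus wild type -0.84 ± 0.09; the 3 differences share their arrays.

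For the other 4 genes knockout and rescue arrays overlapped. Serpina1b and Serpina3n lie on chromosome 12, as Bdkrb1 does, and Serpina3n was among the 20 measured genes nearest to it. Both groups compared lack the product of that locus, and the part of this position in the overlap was not tested. Serpina1b, 1 of several near-identical alpha-1-antitrypsin genes whose probes may bind its copies, read 392.0, 721.4, 810.4 and 370.1 on the knockout arrays and 449.2, 757.3 and 375.8 on the rescue arrays, against 21.1 to 30.5 in wild type. Its log2 difference was -0.10 ± 0.30 and turned positive when knockout array 2 or 3 or rescue array 3 was left out. Sdc4, the gene of syndecan-4, a heparan sulfate proteoglycan of the plasma membrane, differed by 0.16 ± 0.35 with its brightest probe set and by -0.21 with the other, and the first was 0.07 without knockout array 1 or rescue array 2. Serpina3n, an acute-phase protease inhibitor, differed by -0.12 ± 0.12, and Trim14, a regulator of antiviral signalling, by 0.18 ± 0.12 (-0.06 and 0.12 without knockout array 1). Without rescue array 3 Serpina3n differed by -0.03. The 95% interval of Serpina3n (-0.38 to 0.14) and of Trim14 (-0.07 to 0.44) held the difference to less than 1.5-fold either way, while those of Serpina1b (-0.75 to 0.55) and Sdc4 (-0.60 to 0.92) were wider.

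The promoter of Hsd11b1 is shown because this was the 1 gene of the 5 whose rescue arrays left the knockout range, and that of Usp2, a circadian gene described further on, because it had the smallest p among the measured clock genes. Both are the 250 bases before the annotated start in RefSeq on GRCm38.p6, at chr1:193242361-193242610 on the minus strand and chr9:44084670-44084919 on the plus strand, written 5′ to 3′ along the gene. Capitals mark matches, on either strand, to CCAAT (or ATTGG), to the GC box GGCGGG (or CCCGCC) and to the E-box CACGTG, where 2 matches may overlap.
Hsd11b1: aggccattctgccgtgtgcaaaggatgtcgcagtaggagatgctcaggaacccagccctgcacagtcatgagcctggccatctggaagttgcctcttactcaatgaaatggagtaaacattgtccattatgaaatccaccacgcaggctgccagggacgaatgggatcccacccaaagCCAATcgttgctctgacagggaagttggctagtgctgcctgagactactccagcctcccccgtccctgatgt
Usp2: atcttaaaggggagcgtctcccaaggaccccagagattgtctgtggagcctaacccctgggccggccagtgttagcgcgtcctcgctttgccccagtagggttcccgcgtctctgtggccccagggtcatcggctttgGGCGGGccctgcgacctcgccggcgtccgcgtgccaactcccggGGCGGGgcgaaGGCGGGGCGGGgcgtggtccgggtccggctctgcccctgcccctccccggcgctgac
The Hsd11b1 window holds 1 CCAAT match and the Usp2 window 4 GGCGGG matches, and neither holds CACGTG. Of 32851 RefSeq promoters of this length 33.8% hold the first motif, 32.5% the second and 6.02% the third, so such matches are common.

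Genes that restrain or relay ERK and Rap signalling lay higher in fat rescue in 27 of 29 measured cases, with a median log2 difference of 0.17 beside 0.01 over all genes. The list mean was 0.17, 0.15 and 0.19 on the rescue arrays and between -0.13 and 0.12 on the knockout arrays, relative to the knockout mean. The list was written when Dusp4, Rap1gap2 and Rapgef5 were already known to lie high in these data. Without them 24 of 26 members were higher, with a median of 0.15 and 0 with an unadjusted p under 0.05. Their mean was 0.14, 0.12 and 0.16 on the rescue arrays and -0.13 to 0.12 on the knockout arrays, and the groups overlapped, as rescue array 2 (0.115) fell below knockout array 4 (0.121). The median of all 29 was 0.10 without knockout array 3.

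Dusp4, which encodes a nuclear phosphatase that switches off ERK, read 249.7, 277.6, 234.7 and 261.2 in knockout, against 419.3, 333.7 and 362.9 in fat rescue. Its groups did not overlap, and the wild-type arrays (174.2 to 264.4) lay in or below the knockout range. The difference was 0.54 ± 0.14 on the log2 scale (unadjusted p = 0.00271, adjusted p = 0.998 by limma). Rap1gap2, a GTPase-activating protein that inactivates Rap1, read 248.6, 241.4, 209.1 and 275.5 on the knockout arrays and 289.7, 356.5 and 360.5 on the rescue arrays (0.46 ± 0.12). Rapgef5, an exchange factor that activates Rap, read 382.1, 324.4, 337.9 and 345.0 against 442.7, 432.6 and 458.4 (0.36 ± 0.09; 0.19 with its other probe set). A gene that turns Rap off and a gene that turns it on were both higher on the rescue arrays.

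BMP and Smad signalling, which guides adipocyte commitment and vessel growth, had 26 of 34 genes with higher means and a median of 0.13, with 4 members at an unadjusted p under 0.05, all higher, where 2.09% of all genes were. Smad6 was already known to lie high when this list was written, and without it 3 of 33 had such a p. Smad6, an inhibitory Smad that dampens BMP receptors, read 275.6, 409.0, 311.6 and 345.8 in knockout, against 396.2, 496.1 and 621.6 in fat rescue, a difference of 0.58 ± 0.15 (unadjusted p = 0.00242, adjusted p = 0.998 by limma). Its groups overlapped through knockout array 2 and rescue array 1, and the wild-type arrays lay between 430.8 and 469.2. Bmp6, a ligand, read 270.5 to 284.9 on the knockout arrays and 298.6, 352.9 and 426.8 on the rescue arrays, without overlap (0.37 ± 0.12; 0.24 without rescue array 3). The ligand gene Bmp4 (0.44 ± 0.16) and the endothelial type I receptor gene Acvrl1 (0.33 ± 0.15; 0.20 without knockout array 3) had overlapping groups. The list median was 0.09 when a gene's probe sets were averaged.

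Of single genes with the smallest p among those whose groups did not overlap, 15 in each direction, the higher ones had unadjusted p from 0.00205 to 0.00518. Nkain4, a gene for a small membrane protein that interacts with the sodium pump, read 179.2, 250.1, 192.2 and 176.5 in knockout, against 348.9, 278.2 and 284.4 in fat rescue (0.61 ± 0.16). Rarres2 encodes chemerin, an adipokine that recruits leukocytes and acts on adipocyte differentiation. Its signal was 2396.2, 2571.4, 2140.6 and 2576.5 on the knockout arrays and 2850.5, 3060.3 and 3913.9 on the rescue arrays (0.43 ± 0.12; 0.46 with another probe set), and the wild-type arrays, at 2823.8 to 3574.1, covered the range of the lower rescue arrays. Gpd2, the mitochondrial glycerol-3-phosphate dehydrogenase that passes electrons from the cytosol to the respiratory chain, read 777.4, 684.9, 733.6 and 536.5 in knockout, against 1023.3, 977.8 and 833.7 in fat rescue. That was a difference of 0.48 ± 0.14, or 0.46 with another probe set, but 0.04 and -0.14 with its dimmer ones. Wild type read 930.4 to 1233.5.

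Further higher members were Akap12, a scaffold for protein kinases A and C, and the integrin subunit gene Itgb1. Akap12 read 899.2 to 1182.8 on the knockout arrays and 1386.1, 1388.8 and 1399.2 on the rescue arrays (0.39 ± 0.11). Itgb1 differed by 0.29 ± 0.08, by 0.12 with another probe set and by 0.42 with a dim one. Hspb1, a small heat shock protein gene, differed by 0.30 ± 0.09 and by 0.29 with its other probe set. Atf5, a stress-responsive transcription factor gene, differed by 0.32 ± 0.09, and Fkbp8, an immunophilin gene of the mitochondrial surface, by 0.43 ± 0.12. The extracellular matrix gene Smoc2 differed by 0.40 ± 0.11 but by -0.12 with its other probe set. In both sets of 15, the second probe set was a check where a gene had one. It had the same sign in 5 of 6 higher genes and in 6 of 11 lower ones, beside 154 of the 214 genes (72.0%) of unadjusted p under 0.05 that have one and 3493 of 5962 (58.6%) among all genes that have one.

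The lower set had unadjusted p from 0.000325 to 0.00496. At its head stood Mcm2, a subunit of the helicase that licenses DNA replication, which read 200.2, 136.9, 214.2 and 213.4 in knockout, against 91.0, 71.9 and 78.1 in fat rescue (-1.23 ± 0.25, adjusted p = 0.998 by limma). Its other probe set gave 0.28, and the mean of both -0.48. Sbsn, which encodes the secreted epithelial protein suprabasin, gave like values with another probe set. It read 1927.2, 1849.3, 1826.5 and 1536.6 on the knockout arrays and 1409.1, 1286.3 and 1187.3 on the rescue arrays (-0.46 ± 0.12; -0.48 with another probe set), and wild type read 979.2 to 1368.3. Rbm47, an RNA-binding protein gene, differed by -0.35 ± 0.09 and by -0.33 with its other probe set. Syt11, a vesicle-trafficking synaptotagmin (-0.56), Pacc1, a proton-activated chloride channel (-0.63), and Ptpa, an activator of the phosphatase PP2A (-0.32), had values of 0.18, 0.39 and 0.01 with another probe set. Serinc4, with -1.39 ± 0.30, read only 13.3 to 26.5 in fat rescue, and Lrp12, a receptor of the lipoprotein receptor family, differed by -0.46 ± 0.13.

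Among brighter genes ranked by size, the largest differences with groups that did not overlap were those of Bhlhe40 on the higher side and Apod on the lower. Apod, which encodes the lipid-binding apolipoprotein D, read 661.6, 684.2, 683.4 and 946.0 in knockout, against 462.6, 620.4 and 295.5 in fat rescue (-0.74 ± 0.23; -0.46 without rescue array 3, and -0.99 with its other probe set). Itm2a, a membrane protein gene of differentiating mesenchymal cells, differed by -0.57 ± 0.22 (-0.37 with its other probe set), with wild type at 181.2 to 390.2, in and below the rescue range. G3bp2, a stress granule protein gene, read 1861.4 to 2741.7 on the knockout arrays and 1376.2 to 1792.1 on the rescue arrays (-0.49 ± 0.15). With its other probe sets G3bp2 differed by only -0.14 and -0.03. The trafficking GTPase gene Rab15 differed by -0.54 ± 0.20, and by -0.25 without rescue array 3. On the higher side Flrt2, a cell adhesion gene, differed by 0.52 ± 0.22 (0.28 and -0.09 with its other probe sets). The junction protein gene Ajuba differed by 0.48 ± 0.15, and Luzp1, an actin- and cilium-associated protein gene, by 0.57 ± 0.20 (-0.33 with its other probe set).

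**Figure D4:**
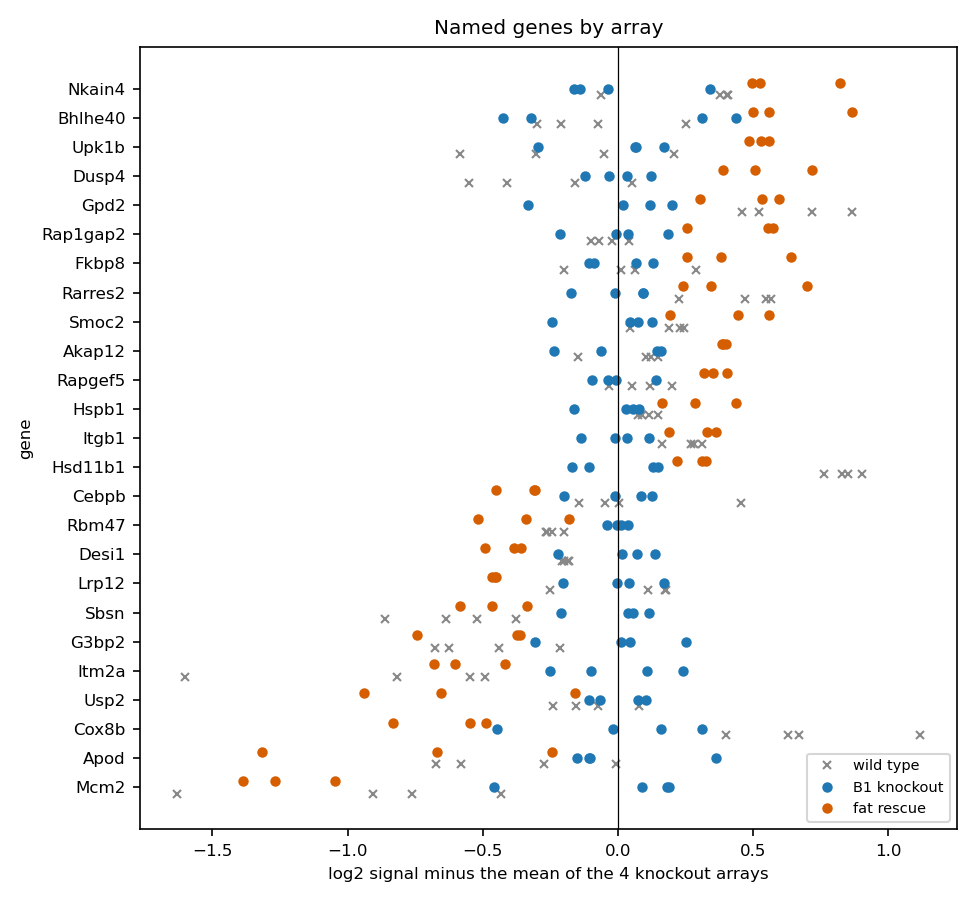
Log2 signal of 25 named genes on each array, relative to the mean of the 4 knockout arrays; blue points are knockout, orange points fat rescue and grey crosses wild-type arrays. All 25 are among the 4.93% of genes whose knockout and rescue arrays did not overlap, so the separation drawn follows from that choice. Each gene is drawn with its brightest probe set, and some differ with another, as given in the text. Desi1, which the text does not describe, differed by -0.41 as drawn and by -0.03 and 0.39 with its other probe sets. For Hsd11b1 the rescue arrays stand between knockout and wild type.

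Adipocyte genes were evenly divided. Adipoq, which encodes the adipocyte hormone adiponectin, read 15589.1 to 22283.7 on the knockout arrays and 17418.7 to 21581.0 on the rescue arrays, so this defining marker of fat was among the brightest genes named here on all 7. Of 23 adipocyte identity genes 11 had higher and 12 lower means, with a median of 0.00. Pparg, the nuclear receptor that directs adipogenesis, read 2080.6, 2808.3, 2744.1 and 2561.1 in knockout, against 2804.2, 2669.9 and 2793.0 in fat rescue (0.12 ± 0.10; 0.03 without knockout array 1). Trarg1, which takes part in GLUT4 trafficking, differed by -0.26 ± 0.12. Of 25 genes of lipolysis, lipid droplets and fatty acid uptake 13 were higher (median 0.01), with Plin5, a droplet coat protein of oxidative cells, at -0.46 ± 0.19 (-0.46 with its other probe set) and Gpihbp1, the endothelial anchor of lipoprotein lipase, at 0.22 ± 0.11. Cebpb, a transcription factor of early adipogenesis, read 1265.2 to 1581.6 on the knockout arrays and 1060.6 to 1173.3 on the rescue arrays, without overlap (-0.36 ± 0.13; -0.04 with its other probe set).

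Genes of fuel synthesis and oxidation had mostly lower means. In fatty acid and triglyceride synthesis 20 of 27 were lower, with a median of -0.11. Fads2, a desaturase of polyunsaturated fatty acids, read 141.2 to 214.4 in knockout, against 97.5, 135.9 and 105.5 in fat rescue, without overlap (-0.61 ± 0.27; -0.55 with its other probe set), and Dgat1, which completes triglyceride assembly, differed by -0.30 ± 0.16 (-0.13 without rescue array 3, and -0.57 with its other probe set). The rescue arrays disagreed among themselves, with list means of -0.14, 0.33 and -0.56. The median was 0.06 without rescue array 3, -0.29 without rescue array 2 and -0.06 without knockout array 2.

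Of the enzymes of pyruvate entry and the tricarboxylic acid cycle, 22 of 28 genes lay lower (median -0.07), as did 16 of 23 of fatty acid oxidation (-0.07) and 33 of 48 of oxidative phosphorylation (-0.02). In these lists Cpt2, which imports acyl groups into mitochondria, differed by -0.30 ± 0.13 (-0.19 without knockout array 3 and -0.20 without rescue array 3), and Atp5o, a subunit of the ATP synthase, by -0.26 ± 0.11 (-0.25 with its other probe set). Without rescue array 3 the cycle list had a median of 0.00 and fatty acid oxidation one of -0.03; without knockout array 3 they were -0.03 and -0.01, and without knockout array 2 both were -0.04. Without rescue array 2 the median of fatty acid oxidation was -0.04. Centring each array on its median signal, which moved the median of all genes to 0.06, gave -0.03 and -0.02. The oxidative phosphorylation median turned to 0.02 both without rescue array 3 and with that centring, and was 0.00 without knockout array 2; it was -0.04 without knockout array 1 and -0.05 without knockout array 4 or rescue array 1.

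In glycolysis 11 of 18 were lower (-0.03), with the phosphofructokinase gene Pfkp at 0.25 ± 0.11 (0.13 without rescue array 2). Its median turned to 0.02 both without rescue array 3 and with that centring, and was -0.08 without rescue array 2, -0.06 without rescue array 1, -0.05 without knockout array 3 and -0.02 without knockout array 2. Brown and beige adipocyte genes, few of which white fat expresses, had 8 of 10 measured members lower (median -0.30). Cox8b, a muscle and brown fat subunit of cytochrome c oxidase, read 172.8, 195.7, 217.3 and 128.4 on the knockout arrays and 125.0, 119.8 and 98.5 on the rescue arrays. The groups did not overlap (-0.62 ± 0.20, unadjusted p = 0.00794, adjusted p = 0.998 by limma), and wild type lay higher than both at 231.3 to 379.9. The list median was -0.19 without rescue array 2, -0.18 without rescue array 3 and -0.20 with 50 added to every signal.

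Markers of the depot's covering and of its vessels had mostly higher means in fat rescue, and in bulk tissue more cells of a type cannot be told apart from more RNA per cell. Mesothelial genes, of the epithelium that covers the depot, were higher in 16 of 19 cases (median 0.24), with 5 at an unadjusted p under 0.05 and 4 without overlap (3.81% and 4.93% of all genes). Upk1b and Nkain4 were known to lie high when this list was written, and without them 3 of 17 had such a p and 2 did not overlap. Upk1b, a membrane protein gene of urothelium and mesothelium, read 493.0, 457.9, 356.2 and 456.9 in knockout, against 611.7, 643.8 and 631.9 in fat rescue (0.52 ± 0.16). With its other probe sets Upk1b differed by 0.42, 0.40 and 0.15. Msln, which encodes mesothelin, read 266.8, 240.3, 216.9 and 275.5 against 302.3, 296.1 and 386.7 (0.39 ± 0.16), and Cldn15, a tight junction gene, differed by 0.26 ± 0.11, by 0.12 without rescue array 1 and by 0.39 without rescue array 2. Nkain4, named above, was a member of this list as well. The summed signal of the list was 10960 to 13850 on the knockout arrays and 13160 to 16970 on the rescue arrays, so the groups overlapped.

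The endothelial list held 24 of 27 genes with higher means (median 0.17); for smooth muscle and pericytes it was 16 of 19 (median 0.20). Esam, an endothelial adhesion molecule gene, read 1042.2, 1032.9, 906.7 and 971.0 in knockout, against 1147.2, 1095.7 and 1247.8 in fat rescue (0.24 ± 0.11). The vascular phosphatase gene Ptprb differed by 0.23 ± 0.09, and by 0.23 with another probe set, and Tek, the angiopoietin receptor gene, by 0.28 ± 0.14 (0.14 without rescue array 3). Esam and Tek were known when the list was written, and without them 22 of 25 were higher. In the mural list Abcc9, a pericyte potassium channel subunit, differed by 0.31 ± 0.14 and Synpo2, an actin-binding protein gene of smooth muscle, by 0.50 ± 0.25 (0.33 without knockout array 3). Summed endothelial signal was 37910 to 49650 on the knockout arrays and 45530 to 49190 on the rescue arrays, and summed mural signal 16120 to 20960 and 19350 to 21180, with overlap in both. The endothelial median was 0.27 without rescue array 2 and 0.09 without rescue array 3. The mural median was 0.13 without knockout array 4 and 0.11 with a gene's probe sets averaged. The part of these cell types in the ERK, Rap and BMP differences, which include endothelial genes such as Acvrl1, was not tested.

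Macrophage genes were higher in 24 of 30 cases (median 0.16), but knockout array 1 had the highest list mean of all 7 arrays at 0.70, against -0.35 to -0.12 on the other knockout arrays and 0.10 to 0.26 on the rescue arrays. Lgals3, which encodes galectin-3, read 5099.4, 1485.6, 1346.2 and 1676.5 in knockout, against 3033.4, 3482.9 and 2751.7 in fat rescue (0.60 ± 0.36; 1.04 without knockout array 1). The signalling adaptor gene Tyrobp followed the same order, with 2414.8 on knockout array 1, 942.3 to 1258.1 on the others and 1545.4 to 1845.5 in fat rescue (0.40 ± 0.26; 0.70 without knockout array 1 and 0.25 without knockout array 2 or 3). Mgl2, a lectin gene of tissue macrophages and dendritic cells, was the 1 member of 30 without overlap (0.22 ± 0.10). That is 3.33%, beside 4.93% of all genes. Summed signal was 31740 to 64380 on the knockout arrays and 43560 to 49680 on the rescue arrays. Leaving out knockout array 1 gave a median of 0.32, and leaving out knockout array 3 or 4 gave 0.06 or 0.09; dropping rescue array 3 gave 0.08. With the replicate number as a block it was 0.11.

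Of 14 neutrophil and mast cell genes 5 were higher (median -0.16), and the list mean was 1.09 on rescue array 1, -0.56 and -0.23 on the other rescue arrays and -0.31 to 0.35 on the knockout arrays. S100a8, a calcium-binding protein gene abundant in neutrophils, read 1404.3 on rescue array 1, against 164.3 and 175.9 on the other rescue arrays and 135.4 to 269.2 in knockout. Its mean difference of 0.95 ± 0.58 turned to -0.06 without that array and was 1.49 or 1.44 without rescue array 2 or 3. Leaving out 1 rescue array at a time gave the list a median of -0.33 (array 1), 0.17 (array 2) or 0.00 (array 3), and leaving out knockout array 1 or 2 gave -0.06. Fibroblast and matrix genes were higher in 13 of 30 cases (median -0.02; 0.10 without knockout array 1, and -0.08 and -0.09 without knockout arrays 3 and 4), with the metalloproteinase inhibitor gene Timp3 at 0.29 ± 0.12 (0.16 with another probe set). Of 22 listed genes of the epididymis and male accessory glands, the organs beside this depot, 15 were on the array and 1 passed the brightness filter.

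Interferon, chemokine and immediate early lists had mostly higher means. The acute phase and complement list was nearly even, with 7 of 13 higher (53.8%, beside 52.6% of all genes) and a median of 0.09. That median turned to -0.01 without knockout array 4 and to -0.02 without rescue array 2. By limma an unadjusted p under 0.05 was reached by 2 of 28 interferon and 2 of 24 chemokine and signalling genes, all higher. It was reached by 0 of 26 immediate early genes, where 2.09% of all genes had such a p and were higher. The interferon response had 23 of 28 genes with higher means (median 0.12), with Gbp7, an interferon-induced GTPase gene, at 0.31 ± 0.13 (-0.07 with its other probe set) and Rsad2, which encodes the antiviral enzyme viperin, at 0.32 ± 0.14 (0.20 without rescue array 3). Of 24 chemokine and inflammatory signalling genes 16 were higher (median 0.11), with the chemokine genes Ccl7 at 0.67 ± 0.29, Ccl5 at 0.41 ± 0.19 and Cxcl1 at 0.54 ± 0.26. Ccl5 read 192.4, 109.6, 139.3 and 174.9 in knockout, against 207.9, 213.2 and 181.5 in fat rescue, so knockout array 1 overlapped with the rescue range, and the difference was 0.26 without knockout array 2. The chemokine median was 0.20 without knockout array 1 or rescue array 2 and 0.07 without rescue array 3. Immediate early genes, which respond to stimuli and to tissue handling within minutes, were higher in 21 of 26 cases (median 0.11), with Ccn2, a matricellular growth factor gene, at 0.40 ± 0.24 (0.22 without knockout array 3). That median was 0.02 without rescue array 3, whose list mean of 0.33 was the highest.

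Clock genes, which also depend on the hour of collection, were higher in 12 of 18 cases (median 0.09). The groups did not overlap in 2 of the 18 (11.1%), which had opposite signs, beside 4.93% of all genes. Usp2, a ubiquitin-specific protease gene with strong daily rhythm, read 403.5, 457.3, 415.0 and 467.7 on the knockout arrays and 276.2, 389.2 and 227.1 on the rescue arrays (-0.58 ± 0.16; -0.31 with its other probe set). Bhlhe40, a repressor of the clock, read 292.5, 488.2, 314.7 and 532.6 in knockout, against 717.0, 578.7 and 556.4 in fat rescue (0.64 ± 0.21). Cry2, another clock repressor gene, differed by 0.28 ± 0.12 with overlapping groups. The labels used here give no hour of collection, and its part was not tested. Dropping knockout array 2 gave a list median of 0.04, and dropping knockout array 3 one of 0.02.

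Of 19 genes of glucocorticoid activation and response 12 were higher (median 0.08). Dropping knockout array 1 or 3 gave 0.04 or 0.05, and centring each array on its median 0.13. Beside Hsd11b1 stood the glucocorticoid receptor gene Nr3c1 at 0.21 ± 0.09 (0.01 with another probe set). Fkbp5, a chaperone gene that glucocorticoids induce, was on the other side of 0, with 976.5, 1794.6, 1172.1 and 1698.2 on the knockout arrays and 1199.6, 1036.9 and 845.9 on the rescue arrays (-0.43 ± 0.20, overlapping).

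Replication licensing and cell cycle genes were divided, 18 of 34 higher, with a median of 0.00. Beside Mcm2, the mitotic kinase gene Plk1 read 73.0, 39.3, 34.2 and 36.4 in knockout, against 22.6, 18.4 and 20.4 in fat rescue (-1.09 ± 0.36), and the values of Mcm10, which loads the replication machinery, were 36.0 to 45.8 and 3.1 to 43.8 (-1.54 ± 0.66; -0.49 without rescue array 1 and -2.40 without rescue array 3). These signals are dim. Mcm3, a partner of Mcm2 in the same helicase, differed by 0.43 ± 0.19 in the other direction (0.04 with another probe set). Among 24 antioxidant and metallothionein genes, 14 higher with a median of 0.02, the secreted glutathione peroxidase gene Gpx3 and the catalase gene Cat lay on opposite sides. Gpx3 read 8223.1 to 10047.5 on the knockout arrays and 10705.2 to 12250.7 on the rescue arrays (0.31 ± 0.13), and Cat 6441.1 to 9840.4 and 6074.6 to 6187.9 (-0.32 ± 0.15; -0.20 without knockout array 3, and -0.32 with its other probe set), both without overlap.

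Over the 36 lists with at least 4 measured genes, 24 had a median above 0, and 31 did when each array was centred on its median. Among lists not described above there were 12 of 25 insulin signalling genes higher (median -0.01), 13 of 24 of endoplasmic reticulum stress (0.01), 10 of 20 of cholesterol synthesis (0.00), 11 of 19 heat shock genes (0.03) and 10 of 18 of lymphocytes (0.02). Antigen presentation had 9 of 13 higher (0.08; 0.04 and 0.05 without knockout array 3 and rescue array 3, 0.13 without knockout array 1). Of the 17 medians no further than 0.03 from 0, 16 changed sign when some 1 array was left out, and of the 19 larger ones 5 did. The lists share arrays and in part genes and are not independent of each other.

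**Figure D5:**
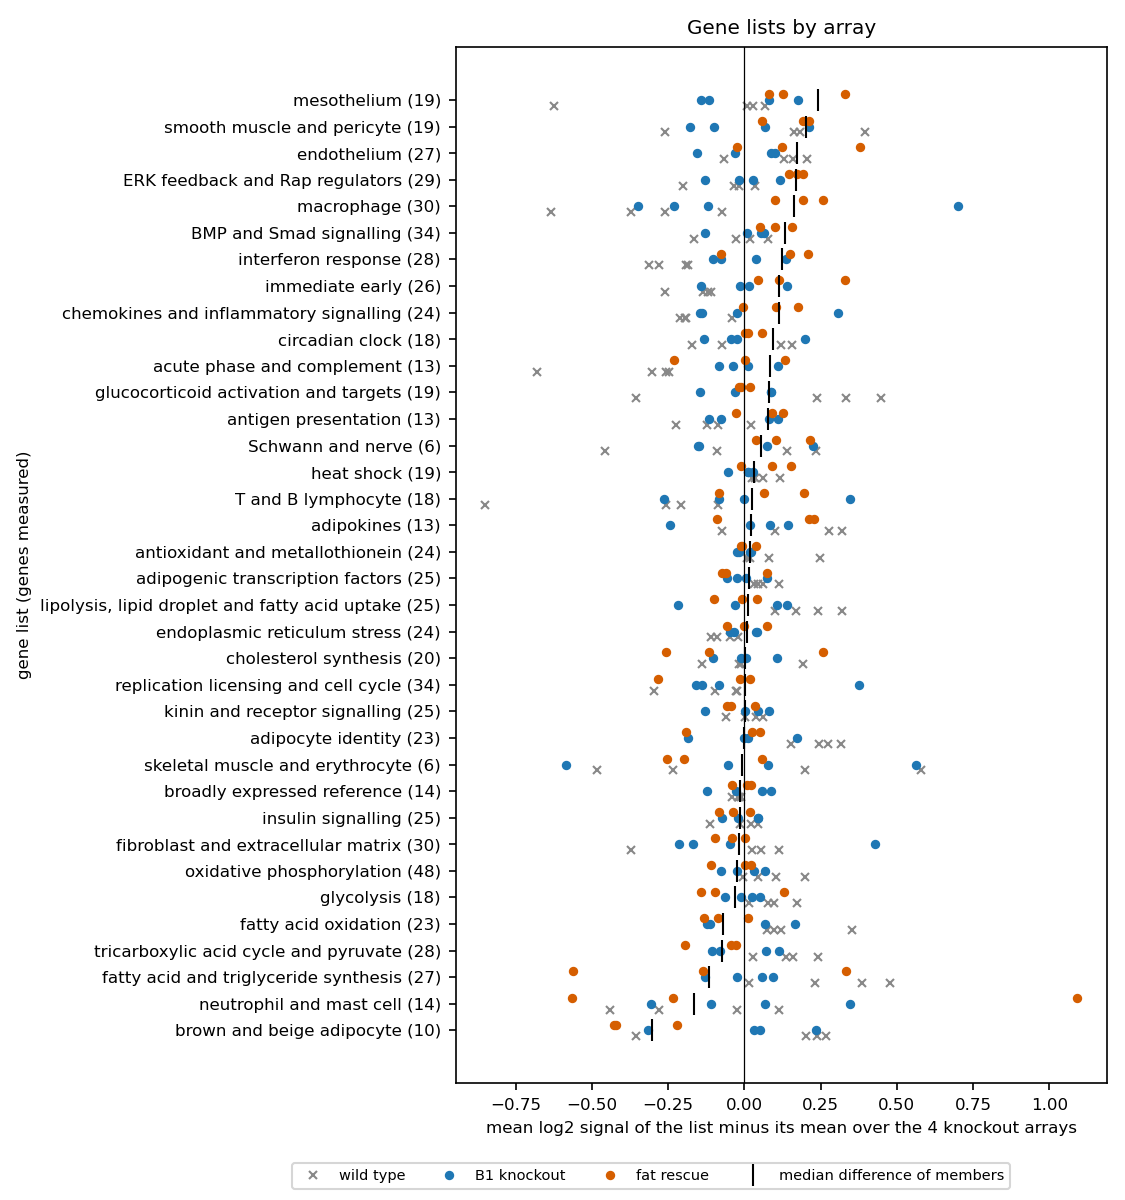
Mean log2 signal of the measured genes of 36 lists on each array, relative to the list's mean over the 4 knockout arrays, sorted by the median difference of the members (black bar); blue points are knockout, orange points fat rescue and grey crosses wild-type arrays, and the number of genes measured stands beside each name. In the list of ERK feedback and Rap regulators the rescue points (0.15 to 0.19) stand above the knockout points (-0.13 to 0.12) as drawn, with the 3 genes already known to lie high; without those 3 they overlap (0.12 to 0.16 and -0.13 to 0.12), and in the other lists drawn they overlap too.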

How the data were processed

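Total RNA of epididymal fat had been labelled with biotin and hybridized to 1 one-colour Affymetrix array per mouse. The deposited values are the authors' MAS5 intensities, 1 per probe set on a linear scale, made with GCOS 1.3 per the submitters' processing notes; the trimmed mean was 200 on every array. The files hold no detection calls, so a low signal was not marked as background, and precision rests on how many arrays there are. The genome build behind the probe sets is not given in the sources used here.

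The array's 45101 probe sets comprised 64 controls, 34945 with 1 gene symbol, 932 with several and 9160 with none. A single value of 0 was set to 0.1 before log2 was taken. The dimmest probe sets by mean log2 signal were dropped, the upper 60% (27022) staying, and the brightest represented each gene with 1 symbol. No further normalization was applied. All 11 arrays were fitted with limma 3.58.1 (lmFit, eBayes with trend; R 4.3.3, statmod 1.5.0), genotype being the only factor and wild type adding to the estimate of spread. P-values of the two-sided contrast were adjusted over all 12709 genes (Benjamini-Hochberg) and called under 0.05; Bdkrb1, Bdkrb2 and Fabp4 probe sets were added whatever their brightness, with an exact permutation test over the 35 splits. ± is SD for signals and SE for log2 differences. The fit was tested on simulated data.

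Lists were described by counts and medians and not tested. The genes, the 38 lists and the rules were chosen with earlier results of these data known. Genes named were Bdkrb1, Bdkrb2 and Fabp4; the 5 genes that passed between knockout and wild type; in each direction the 15 genes of smallest unadjusted p and the 10 with the largest difference at a signal of at least 200, groups not overlapping in either case; and up to 4 members per list with the smallest p. Not all of them are named; neighbours of Bdkrb1 were taken in order from RefSeq (GRCm38.p6), in which 12660 genes had a chromosome. RefSeq promoters were used for motifs, and no protein sequence was used.

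Replicate numbers were checked for pairing: same-numbered knockout and rescue arrays correlated in their deviations at 0.188, -0.0383 and 0.0365, and they were not treated as pairs. Alternatives were other normalizations, pseudocount, filters, probe set rules, variance moderation, array weights, the 7 arrays alone, the replicate block and leaving out each array; leaving out knockout array 1 with rescue array 1, and leaving already named genes out of their lists, were chosen later, with the values in view.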

Additional observations from a re-analysis of the deposited data

Results flagged for a closer look

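In 136 groups of 4 arrays, knockout or wild type, 6 held an array far from the other 3, where chance gives about 1 in 20. Knockout array 1 was far above the others for Lgals3, the galectin-3 gene, at 5099.4 against at most 1676.5, and for the mean of the replication and cell cycle genes, at 0.38 against at most -0.08 relative to the knockout mean. Knockout array 4 was flagged for 3 items: Apod at 946.0 and Bmp6 at 284.9 were higher, and a dimmer probe set of Fabp4 was lower at 3789.8. The rule sets an array's gap against the range of the 4 arrays, and for Bmp6 that range was narrow, 270.5 to 284.9. Knockout array 2 read 136.9 for Mcm2, below the other 3.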

How the results depend on the processing

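With limma 0 genes passed an adjusted p of 0.05 in fat rescue against knockout under all 24 alternatives, the 27022 probe sets tested singly among them; the smallest adjusted p was 0.21, without knockout array 1 and rescue array 1. The genes with an unadjusted p under 0.05 were 333 to 858 when 1 array was left out, and 739 with no filter on dim probe sets. With the replicate number as a block (replicate block) 0 genes passed and Bdkrb1 differed by 2.49, and the block changed no call. Only rescue array 1 correlated best with the knockout array of its own number. Bdkrb1 was 0.77 to 2.68 over all alternatives (adjusted p 0.73 or more) and 1.80 to 2.68 with 1 array left out. Genes with an interval within 1.5-fold were 42.6% with no filter and 86.4% with 50 added to every signal.

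Of 79 named genes 74 kept their sign in every alternative run for them (23 for 75 genes and 22 for the other 4, which the stricter brightness filter left out). Leaving out 1 array moved the difference of 24 of them by over 1.5 times. With a gene's probe sets averaged Sdc4 turned to -0.028, Syt11 to 0.19 and Pacc1 to 0.084. Serpina1b read 0.04, 0.10 and 0.11 without knockout array 2, knockout array 3 and rescue array 3, and -0.39 to 0.11 over all arrays left out; S100a8 read -0.062 without rescue array 1. The cause was not tested. Lists with a median above 0 numbered 19 to 31.

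The signals carry no depth, and dim genes had the widest intervals. With 3 and 4 arrays, a missed threshold does not show that a gene is alike in both groups.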
